A study of Mus musculus with 8 samples.

Results

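The miR-183 cluster (miR-183, miR-96 and miR-182) is a set of 3 neighbouring microRNA (miRNA) genes that are transcribed together. Its members here were the mature 5p arms mmu-miR-183-5p, mmu-miR-96-5p and mmu-miR-182-5p, taken by name, which makes 3 of the 1978 mature names in the count table. All 3 were detected in each of the 8 libraries and all 3 passed the filter on low counts, which left 382 miRNAs to test. The libraries are small RNA sequencing of CD8+ T cells sorted from mouse spleen by CD8, CD4, CD44 and CD122, in 4 groups of 2: mCre MP, WT MP, mCre TN and WT TN. The titles call the subsets MP and TN, and the design text names VM in place of MP; in this field MP and VM usually stand for memory-phenotype and virtual memory cells and TN for true naive cells, but the labels do not spell them out. The genotype is WT or mCre, and the series title links it to miR-29 and Cre, the recombinase used to delete marked genes. Neither the deleted sequence nor the promoter behind Cre nor the strain is stated in the labels. Adult and neonatal spleens share one protocol text, so the age of each library is not given either. Whether both libraries of one group stem from different mice is not stated, and p-values therefore reflect only the spread between libraries, which may be technical.

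A miRNA is cut from a hairpin, and one arm is loaded into an Argonaute protein, where bases 2 to 8, the seed, choose the messenger RNAs to be repressed. The cluster is best known from sensory cells of the eye and ear and from epithelia. In mouse helper T cells, miR-182 is induced by interleukin-2 signalling through STAT5 after activation and represses Foxo1, a transcription factor that keeps naive lymphocytes quiescent, which allows the activated cells to divide. Memory-phenotype CD8+ T cells carry high CD122, a subunit of the receptor for interleukin-2 and interleukin-15, and CD122 is one of the markers of the sort.

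The mature sequences (RefSeq, GRCm38.p6) are shown to compare the seeds, which are in capitals; each reads 5′ to 3′.
mmu-miR-183-5p: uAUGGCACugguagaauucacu
mmu-miR-96-5p: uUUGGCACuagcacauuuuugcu
mmu-miR-182-5p: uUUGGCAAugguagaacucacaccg
The 3 seeds differ from one another, and share the 5 bases UGGCA at positions 3 to 7, counted from 1 at the 5′ end. Of 717 detected miRNAs with a RefSeq sequence, only these 3 (0.418%) held those bases at those positions. The seed of miR-96-5p matched 6 of the 7 bases of each other member's, while the seeds of miR-183-5p and miR-182-5p matched each other at 5 of 7. Over the whole length the order was different: miR-183-5p and miR-182-5p had the same base at 18 of 22 positions, against 13 of 22 for miR-183-5p with miR-96-5p and 12 of 23 for miR-96-5p with miR-182-5p. The seed of miR-96-5p is also that of miR-1271-5p, which had a count of 0 in all 8 libraries.

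The genes lie on the minus strand of mouse chromosome 6 (GRCm38, the assembly that mm10 names), in the order of transcription Mir183 at 30169668 to 30169737, Mir96 at 30169446 to 30169551 and Mir182 at 30165918 to 30165992. They span 3820 bp, with 116 bp between Mir183 and Mir96 and 3453 bp between Mir96 and Mir182. None overlaps another annotated gene in GENCODE M21. The nearest genes are the noncoding Rncr4, 3155 bp beyond Mir183 on the opposite strand, and the protein-coding Nrf1, 12459 bp beyond Mir182.

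The libraries held 1936597 to 5230975 miRNA counts, a 2.7-fold range. Levels below are CPM, the count scaled to a fixed total per library, after TMM scaling, a correction for differences in composition between libraries; ligation-based libraries capture some sequences better than others, so levels of different miRNAs are read shares and not molar amounts. Markers of blood and T cells (miR-142a-3p, miR-142a-5p, miR-150-5p and miR-181a-5p) were detected throughout, at a summed 45168 to 109847 CPM in MP and 51030 to 173417 CPM in TN. miR-29a-3p, read because the series title names miR-29, had 833 and 1498 CPM in mCre MP against 3105 and 11659 in WT MP. In TN it had 1409.8 and 15394 CPM in mCre against 2751 and 802 in WT, so the TN libraries labelled replicate 2 ran opposite to replicate 1. The comparisons of the members' levels, ratios and lists are therefore also given without both of those libraries. The labels were kept as they stand.

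Each of the 3 members was higher in all 4 MP libraries than in any TN library, by 2.83-fold to 3.57-fold on average, and none passed the threshold of adjusted p under 0.05. miR-182-5p, the most abundant member, had 728 and 958 CPM in mCre MP, 621 and 864 in WT MP, 189.8 and 198 in mCre TN, and 333 and 255 in WT TN. Every MP library thus lay well above the highest TN library, and the mCre TN libraries were lowest. miR-183-5p had 602 and 442 CPM in mCre MP, 243 and 400.5 in WT MP, 82.3 and 87.7 in mCre TN, and 144 and 167 in WT TN. The groups again did not overlap, and the closest values were those of WT MP replicate 1 and WT TN replicate 2. miR-96-5p was scarce, with 13, 23, 58 and 48 counts in the MP libraries (mCre replicates 1 and 2, then WT) and 18, 6, 20 and 10 in the TN libraries in the same order. In CPM it had 6.89 and 8.96 in mCre MP, 15.7 and 13.1 in WT MP, 2.99 and 2.08 in mCre TN, and 5.36 and 5.63 in WT TN. At these counts the exact 95% Poisson interval of its lowest MP library, 3.67 to 11.8 CPM, covered all of the WT TN values, so the separation of miR-96-5p is within counting error for those libraries.

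**Figure D1:**
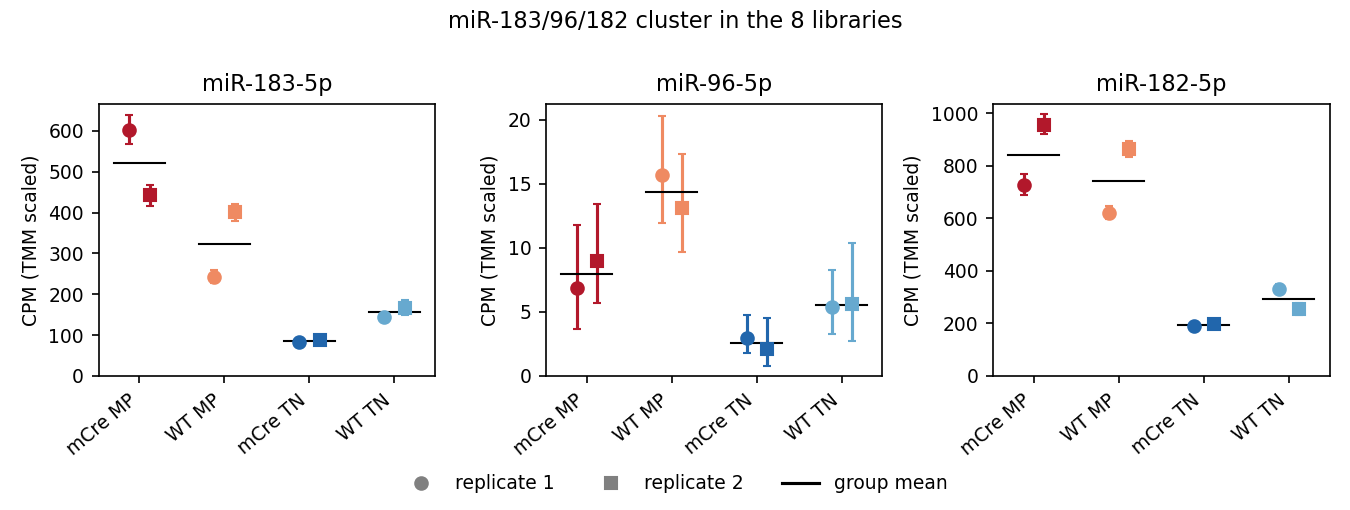
Level of each member in CPM (TMM scaled) by group, with replicate 1 as a circle, replicate 2 as a square, the exact 95% Poisson interval of the count as a bar and the group mean as a line; each panel has its own axis. All MP libraries lie above all TN libraries in each panel, with the narrowest gap for miR-96-5p (6.89 CPM in the lowest MP library and 5.63 in the highest TN library).

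Over both genotypes miR-182-5p averaged 793 ± 148 CPM in the MP libraries and 244 ± 65.9 CPM in the TN libraries (SD, n = 4 per subset). This is a log2 fold change of 1.73 ± 0.39 (SE), or 3.32-fold, with an adjusted p of 0.0602 by edgeR's quasi-likelihood test. miR-183-5p averaged 422 ± 148 CPM in the MP libraries and 120.2 ± 41.8 CPM in the TN libraries (SD, n = 4 per subset), a log2 fold change of 1.83 ± 0.47 or 3.57-fold (edgeR adjusted p = 0.0935). miR-96-5p averaged 11.2 ± 3.97 CPM in the MP libraries and 4.02 ± 1.75 CPM in the TN libraries (SD, n = 4 per subset), a log2 fold change of 1.50 ± 0.51 or 2.83-fold (edgeR adjusted p = 0.258). In this comparison 0 of 3 members passed, against 9 of 382 miRNAs (2.36%; 5 higher and 4 lower in MP, 4 and 6 with RLE scaling, 4 and 5 with total counts). At an unadjusted p under 0.05 the count was 3 of 3 members against 50 of all 382 (13.1%). The libraries did not overlap, with MP higher, for 3 of 3 members against 6.81% of all miRNAs tested. The members' median log2 fold change was 1.73, against -0.04 for all 382; log2 fold changes at least as high as those of miR-183-5p, miR-182-5p and miR-96-5p were seen in 12, 14 and 23 miRNAs, the member itself included.

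**Figure D2:**
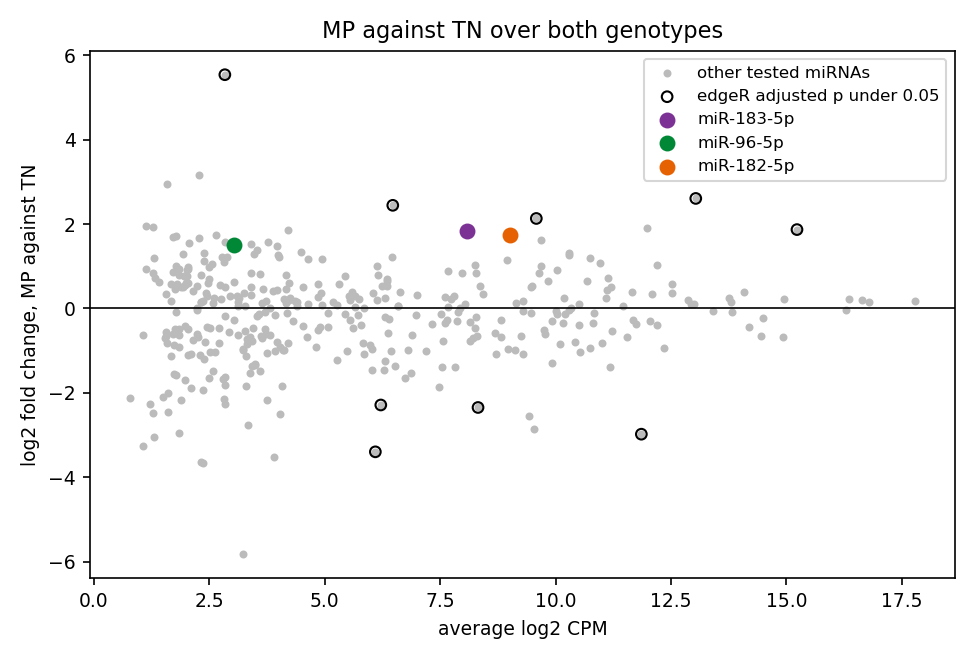
Log2 fold change of MP against TN over both genotypes for the 382 tested miRNAs, against the average log2 CPM; circles mark the 9 miRNAs past the threshold. The 3 members (coloured) lie between 1.50 and 1.83, in the upper part of the cloud and outside the circled set.

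The call for miR-182-5p and miR-183-5p depended on the tool and on the TN libraries labelled replicate 2. DESeq2 called both (adjusted p = 0.000484 for miR-182-5p and 0.0101 for miR-183-5p) and did not call miR-96-5p (adjusted p = 0.0868). Without both TN replicate 2 libraries, edgeR's log2 fold change was 1.50 for miR-182-5p (edgeR adjusted p = 0.0347), 1.70 for miR-183-5p (0.0277) and 1.29 for miR-96-5p (0.19). Leaving out only the library labelled WT TN replicate 2 gave an edgeR adjusted p of 0.0264 for both miR-182-5p and miR-183-5p, with log2 fold changes of 1.66 and 1.93. Leaving out only the library labelled mCre TN replicate 2 gave an edgeR adjusted p of 0.217 for miR-182-5p and 0.344 for miR-183-5p. No other single library left out brought either past the threshold. The settings that called these members also called more of all miRNAs than the 9 of 382. By DESeq2 the count was 26 of 382. By edgeR it was 49 of 433 without both TN replicate 2 libraries and 41 of 437 without WT TN replicate 2. In a bulk sample of sorted cells, more cells that hold a miRNA and more of it per cell cannot be told apart.

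The subset difference was then taken within each genotype, in comparisons that share their libraries with the one above. In mCre cells miR-183-5p showed the largest difference of the 3, with 522 ± 113 CPM in the MP pair and 84.98 ± 3.86 CPM in the TN pair (SD, n = 2 per group), a log2 fold change of 2.62 ± 0.53 or 6.14-fold (edgeR adjusted p = 0.0829). miR-182-5p had 843 ± 163 CPM in mCre MP and 194 ± 5.55 CPM in mCre TN (SD, n = 2 each), a log2 fold change of 2.12 ± 0.51 (edgeR adjusted p = 0.108). miR-96-5p had 7.92 ± 1.47 CPM in mCre MP and 2.54 ± 0.644 CPM in mCre TN (SD, n = 2 each), at 1.62 ± 0.74 on the log2 scale (edgeR adjusted p = 0.231). No member passed, and neither did any other miRNA (0%, 0 of 382 by edgeR, 41 by DESeq2). At an unadjusted p under 0.05 there were 2 of 3 members and 82 of 382 miRNAs (21.5%). Absence of overlap with MP higher held for 3 of 3 members and for 29.6% of all miRNAs. DESeq2 called miR-183-5p (adjusted p = 0.000538) and miR-182-5p (adjusted p = 0.00522) in mCre. Without both TN replicate 2 libraries edgeR's log2 fold changes were 2.50 for miR-183-5p, 2.01 for miR-182-5p and 1.26 for miR-96-5p. Each TN group then held 1 library, assumed to vary like the others. The WT TN libraries are in neither mCre group but enter the filter, the scaling and the estimate of spread. Leaving out the library labelled WT TN replicate 1 gave 2.52 for miR-183-5p and 2.02 for miR-182-5p. Leaving out the library labelled WT TN replicate 2 gave 2.56 and 2.08. In either case WT TN then held 1 library.

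In WT cells the differences were smaller in size. miR-182-5p had 743 ± 172 CPM in WT MP and 294 ± 55.1 CPM in WT TN (SD, n = 2 per group), a log2 fold change of 1.34 ± 0.50 or 2.53-fold (edgeR adjusted p = 0.452). miR-183-5p had 322 ± 111 CPM in WT MP and 155 ± 16.1 CPM in WT TN (SD, n = 2 each), at 1.05 ± 0.50 on the log2 scale or 2.07-fold (edgeR adjusted p = 0.624). miR-96-5p had 14.4 ± 1.83 CPM in WT MP and 5.49 ± 0.197 CPM in WT TN (SD, n = 2 each), at 1.38 ± 0.73 (edgeR adjusted p = 0.662). Again no member and no other miRNA passed (0% of 382 by edgeR, with 31 or 8.12% at an unadjusted p under 0.05 and 10 by DESeq2), and 1 of 3 members had an unadjusted p under 0.05. Absence of overlap with MP higher held for 3 of 3 members, against 26.2% of all miRNAs. Leaving out WT MP replicate 2 gave a log2 fold change of 0.56 for miR-183-5p, the lowest of any member and left-out library in the comparisons of the subsets. With both TN replicate 2 libraries left out, the log2 fold change was 1.03 for miR-182-5p and for miR-183-5p and 1.31 for miR-96-5p.

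The difference between genotypes in the subset effect, tested as an interaction, was 1.57 ± 0.71 on the log2 scale for miR-183-5p, larger in mCre (edgeR adjusted p = 0.349). It was 0.78 ± 0.69 for miR-182-5p (edgeR adjusted p = 0.56) and 0.23 ± 1.00 for miR-96-5p (edgeR adjusted p = 0.947), whose sign turned to -0.05 with total count scaling and also without both TN replicate 2 libraries. No miRNA passed this test by edgeR (0% of 382, with 54 at an unadjusted p under 0.05, none of them a member, and 9 by DESeq2). Without both TN replicate 2 libraries the interaction was 1.47 for miR-183-5p (edgeR adjusted p = 0.706) and 0.98 for miR-182-5p (0.835). The larger fold in mCre was therefore not shown to differ from that in WT.

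**Figure D3:**
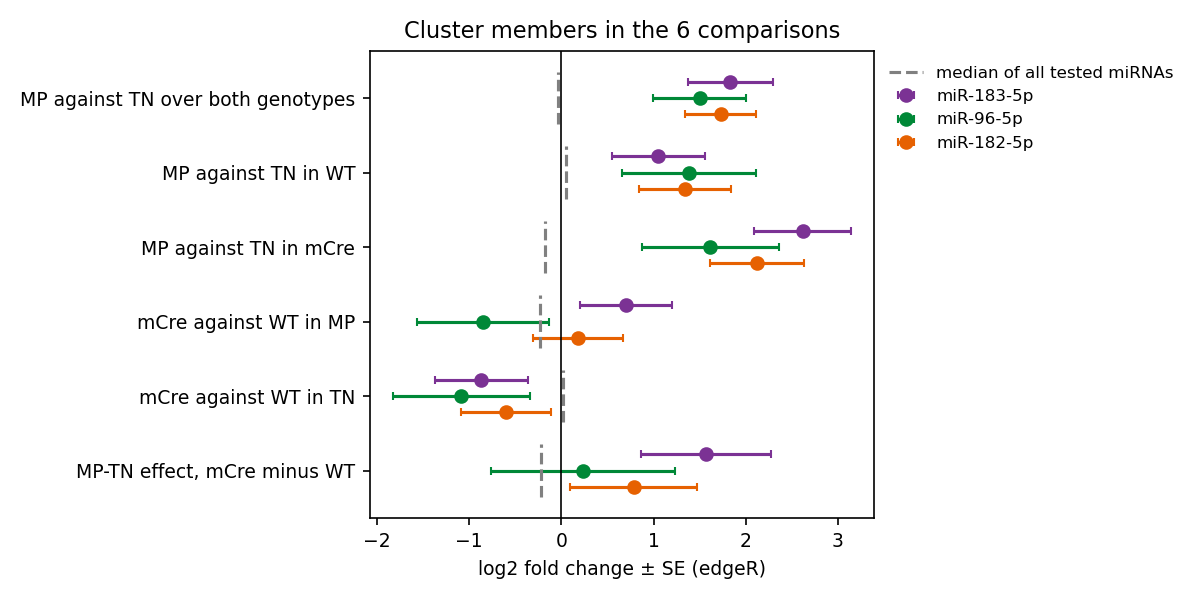
Log2 fold change with its SE (edgeR) of each member in the 6 comparisons, with the median of the 382 tested miRNAs as a dashed line; the last row is the difference of the subset effect, mCre minus WT. The members lie from 1.05 to 2.62 in the 3 rows of MP against TN, and on both sides of 0 for mCre against WT in MP.

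The mCre and WT genotypes were compared within each subset. In MP the members went different ways. miR-183-5p was higher in both mCre libraries (602 and 442 CPM) than in both WT libraries (243 and 400.5 CPM), a log2 fold change of 0.70 ± 0.50 (edgeR adjusted p = 0.502). miR-96-5p was lower in both (6.89 and 8.96 CPM in mCre against 15.7 and 13.1 CPM in WT), at -0.85 ± 0.71 on the log2 scale (edgeR adjusted p = 0.594). miR-182-5p overlapped (728 and 958 CPM in mCre, 621 and 864 CPM in WT) and was at 0.18 ± 0.49 (edgeR adjusted p = 0.875), turning to -0.06 with total count scaling. Libraries without overlap were found for 2 of 3 members and for 64.7% of all 382 miRNAs in this comparison, in which edgeR and DESeq2 called none (0%, with 41 at an unadjusted p under 0.05). In TN all 3 members were lower in both mCre libraries than in both WT libraries, against 6.81% of all miRNAs. This rests on the genotype labels of the TN replicate 2 libraries, which went against miR-29a-3p. The log2 fold changes were -0.87 ± 0.50 for miR-183-5p, -1.09 ± 0.74 for miR-96-5p and -0.60 ± 0.49 for miR-182-5p, each with an edgeR adjusted p of 0.957. edgeR and DESeq2 again called none of 382 (0%, with 12 at an unadjusted p under 0.05, none a member). With both TN replicate 2 libraries left out, it was -0.82 for miR-183-5p, -0.84 for miR-96-5p and -0.82 for miR-182-5p.

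In order of mean level, miR-183-5p and miR-182-5p were highest in mCre MP, then WT MP, then WT TN, and lowest in mCre TN. For miR-96-5p the order was WT MP, mCre MP, WT TN and mCre TN. The place of WT TN above mCre TN depends on the labels of the TN replicate 2 libraries; with replicate 1 alone, mCre TN had 82.3 CPM and WT TN 144 CPM of miR-183-5p, 189.8 and 333 CPM of miR-182-5p, and 2.99 and 5.36 CPM of miR-96-5p. No difference between mCre and WT within a subset, or between WT MP and WT TN, passed by edgeR, and for miR-182-5p the mCre MP and WT MP libraries overlapped; mCre MP against WT TN was not tested. All 1978 mature names were ranked by count within each library. miR-182-5p had ranks of 60 to 77 in the MP libraries and 87 to 110 in the TN libraries, and miR-183-5p 67 to 102 in MP and 107 to 138 in TN. miR-96-5p had ranks of 208 to 268 in MP and 256 to 347 in TN.

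The proportions of the members within a library do not depend on scaling. miR-182-5p made up 54.4% to 70.6% of the cluster's counts, miR-183-5p 27.6% to 45.0%, and miR-96-5p 0.515% to 1.78%. In 6 libraries of all 4 groups the miR-183-5p share lay between 27.6% and 31.4%. It was 45.0% in mCre MP replicate 1 (95% Wilson interval 43.1% to 47.0%) and 39.1% in the library labelled WT TN replicate 2 (35.6% to 42.6%). These intervals cover counting error only, and no test of a single library was made. Taken over all miRNAs, replicates differed by more than counting error in every group. For the miR-183-5p share, the mCre TN replicates (29.9% and 30.5%) lay within each other's intervals. In each of the other groups the intervals of the replicates did not overlap. For miR-96-5p the mCre MP libraries were lowest, at 0.515% and 0.636%, against 1.78% and 1.02% in WT MP. The intervals of both mCre MP libraries (0.301% to 0.879% and 0.424% to 0.953%) overlapped that of WT MP replicate 2 (0.773% to 1.35%). They also overlapped that of the library labelled mCre TN replicate 2, at 0.724% (0.332% to 1.57%). A permutation test of 2 libraries against 2 cannot fall below the threshold, and none was made.

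**Figure D4:**
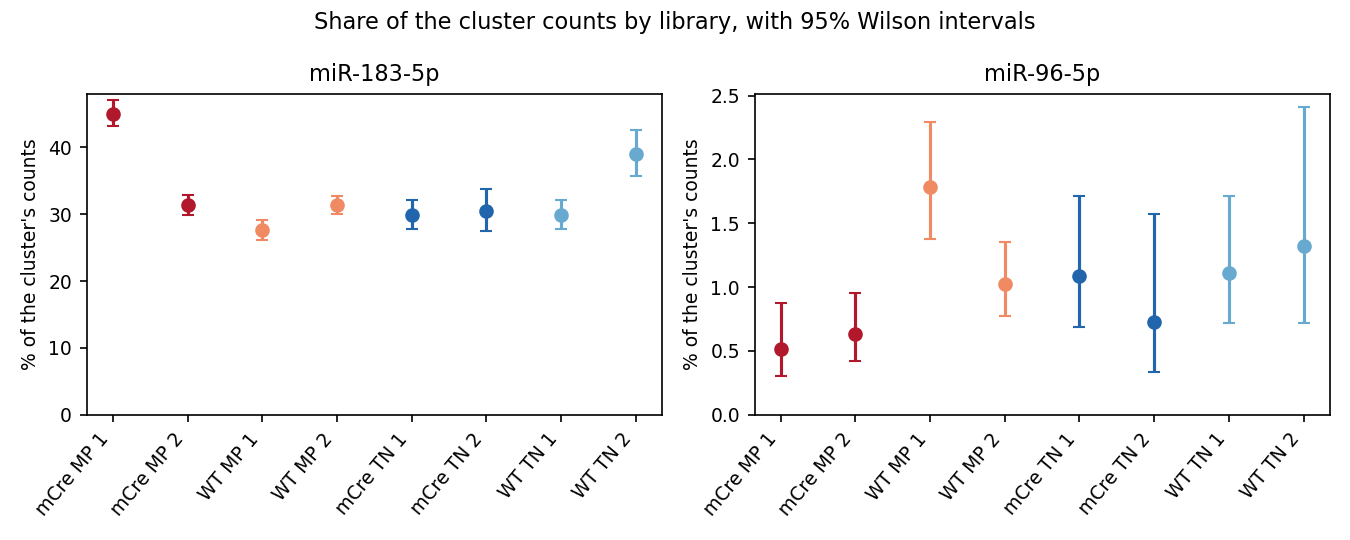
Share of the cluster's counts, in percent, taken by miR-183-5p and by miR-96-5p in each library, with 95% Wilson intervals; the axes differ between panels. The miR-183-5p share is 27.6% to 31.4% in 6 libraries, 45.0% in mCre MP replicate 1 and 39.1% in WT TN replicate 2.

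The log2 ratio of miR-183-5p to miR-182-5p was -0.96 ± 0.47 in the MP libraries and -1.05 ± 0.29 in the TN libraries (SD, n = 4 per subset), a difference of 0.09 (two-sided exact permutation p = 0.714, also after adjustment over the 3 ratios). The log2 ratio of miR-96-5p to miR-182-5p was -6.18 ± 0.66 in MP and -5.94 ± 0.42 in TN (exact permutation p = 0.514, adjusted 0.714). That of miR-96-5p to miR-183-5p was -5.21 ± 1.04 in MP and -4.89 ± 0.27 in TN (exact permutation p = 0.543, adjusted 0.714). All 3 differences were smaller than the SD between MP libraries; the smallest p this design allows is 0.0286. Without both TN replicate 2 libraries the differences were 0.24, -0.24 and -0.48, in the same order, each with an adjusted exact permutation p of 0.733. The libraries left allow too few arrangements for a p under 0.05, so this p could not have passed. Without mCre MP replicate 1 the first difference was -0.14 and the third 0.07, so their signs rest on that library.

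The opposite arms of the hairpins were nearly absent. miR-183-3p had 1 and 2 counts in the mCre TN libraries and 0 in the other 6, miR-96-3p had 2 counts in WT MP replicate 1 and 0 elsewhere, and miR-182-3p had 0 counts in all 8. The 5p arms together held 758 to 4688 counts per library. A floor of 3 counts for a count of 0, close to a one-sided 95% limit, is 0.499 to 1.69 CPM depending on the library, and the exact two-sided interval used for the members reaches 0.613 to 2.08 CPM; both cover counting error only. A change of the 3p arms between groups was thus not detectable at this depth.

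The miRNAs whose profile was most like the cluster's were taken by the root mean square (RMS) difference, over the 8 libraries, between log2 CPM values centred on their own means, with the mean of the 3 members as the template. miR-200a-3p, a miRNA of the epithelial miR-200 family, came first, at 0.31 log2 units, against a median of 1.20 over the 379 other miRNAs. It had 595 and 712 CPM in mCre MP, 696 and 682 in WT MP, 278 and 162 in mCre TN, and 383 and 446 in WT TN. Next were miR-10a-5p (0.36), miR-30a-3p (0.44), miR-200b-5p (0.49) and miR-1843a-5p (0.51), and the first one outside these 5 was at 0.52. Of the 5 only miR-30a-3p passed for MP against TN (2.13 ± 0.37 on the log2 scale, edgeR adjusted p = 0.0303), and all 5 were without overlap. Of all 382 miRNAs, 9 (2.36%) passed and 26 (6.81%) were without overlap with MP higher. The 5 were chosen by likeness to a template that was higher in every MP library, so their separation follows largely from that choice. Among themselves, miR-183-5p and miR-182-5p were each other's nearest profile (0.34), while miR-96-5p was 0.49 from miR-182-5p and 0.68 from miR-183-5p. By nearness to miR-96-5p among all other tested miRNAs, miR-182-5p ranked 5 and miR-183-5p ranked 19. From the template, which includes them, miR-182-5p was at 0.16, miR-183-5p at 0.32 and miR-96-5p at 0.38. The last 2 were thus no nearer to it than miR-200a-3p.

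**Figure D5:**
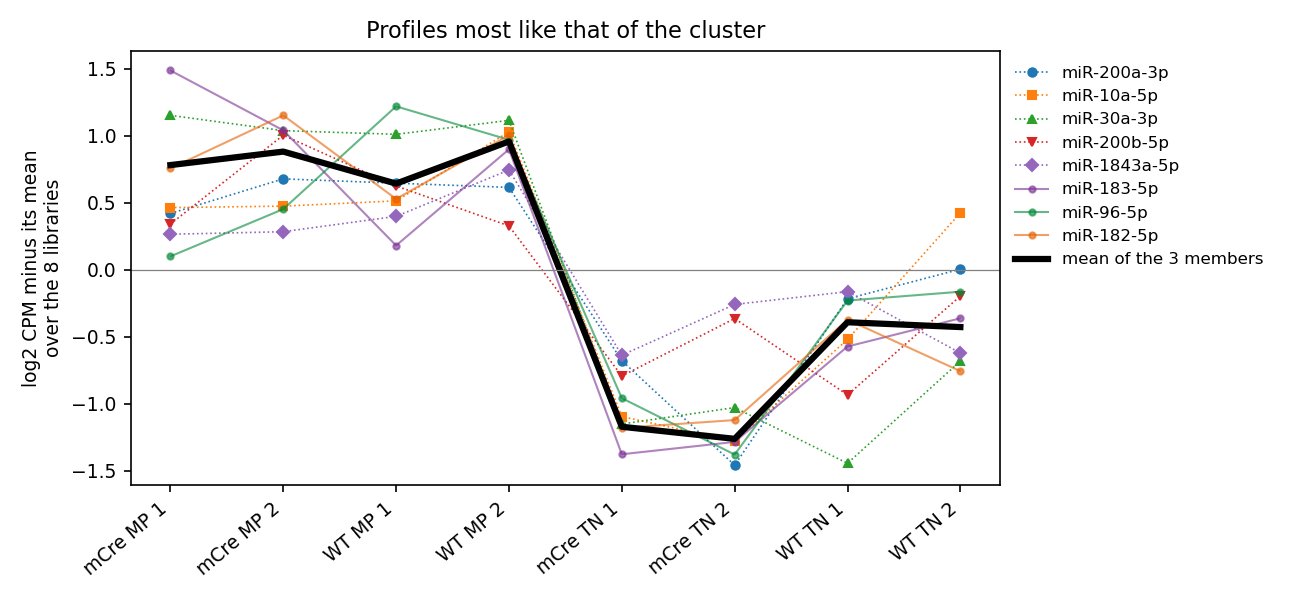
Log2 CPM minus its mean over the 8 libraries, for the mean of the 3 members (thick black line), the members (thin lines) and the 5 miRNAs with the smallest RMS difference from that mean (dotted lines). All profiles are above 0 in the 4 MP libraries, and the mCre TN libraries hold the lowest values of the cluster's mean.

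Other miRNAs of T cell activation, a list that includes targets of NF-kB and of T cell receptor signals, were set beside the cluster. Of 9 listed, 7 were tested and 2 passed, both higher in MP: miR-146a-5p, a brake on NF-kB signalling, at 2.61 ± 0.37 on the log2 scale (edgeR adjusted p = 0.0137), and miR-21a-5p, which is abundant in activated T cells, at 1.87 ± 0.36 (edgeR adjusted p = 0.0392). Over all miRNAs, 9 of 382 passed in this comparison. The list's median log2 fold change was 0.85 against -0.04 for all miRNAs. It was 1.64 in WT (0.05 for all miRNAs) and 0.22 in mCre (-0.18 for all miRNAs), and none of the list passed in either genotype. Of the 7 tested, 6 were higher and 1 lower in MP over both genotypes and in WT, and 4 higher and 3 lower in mCre. miR-155-5p, needed for CD8+ effector responses, was at 1.27 ± 0.55 with overlap between the subsets (edgeR adjusted p = 0.372). Without both TN replicate 2 libraries miR-146a-5p (2.78) and miR-21a-5p (1.50) were again the 2 of 7 that passed, against 49 of all 433 miRNAs. The list's median was then 0.51 (-0.14 for all miRNAs), with 1.08 in WT (0.14 for all) and 0.01 in mCre (-0.30 for all). Of 7 miRNAs of resting lymphocytes, all tested, none passed, and the median was -0.43, with 0.94 in WT and -0.87 in mCre. The one with the smallest p, miR-139-5p, was at 1.92 ± 0.58 (edgeR adjusted p = 0.195), followed by miR-101b-3p at -0.82 ± 0.55 (0.643) and miR-101a-3p at -0.78 ± 0.64 (0.717). Without both TN replicate 2 libraries the median was -0.54 (0.19 in WT and -0.82 in mCre), beside the medians of all miRNAs given above. Of the 7, 2 passed by edgeR, where 49 of all 433 miRNAs did. These were miR-139-5p, higher in MP at 1.68 (edgeR adjusted p = 0.0117), and miR-101b-3p, lower in MP at -1.33 (0.0347).

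Since epithelia express the cluster, miRNAs of other cell types were read in the same libraries, which per the labels were sorted to about 97% purity. The 8 epithelial markers summed to 2255 to 3799 CPM in MP and 1315 to 3177 CPM in TN. All 8 were detected, 7 were tested and 5 of those had a log2 fold change above 0 in MP, against 189 of all 382 miRNAs. Of the tested markers of blood and T cells 0 of 4 were above 0, and of neural and sensory cells 0 of 3. For endothelial and stromal markers it was 2 of 2, for myeloid 1 of 2 and for erythroid 0 of 1. Most of the sum came from miR-200a-3p, miR-200b-3p and miR-203-3p, and miR-200a-3p is also the nearest profile above. Within the list the levels differed widely. miR-203-3p had 235 to 1123 CPM and miR-200c-3p 131 to 292 CPM. miR-429-3p had at most 45.5 CPM, miR-141-3p at most 11.1 and miR-375-3p at most 4.29. miR-205-5p had 0 counts in 4 libraries and at most 5.55 CPM. Markers of neural and sensory cells summed to 70.5 to 128 CPM in MP and 389 to 866 CPM in TN, nearly all of it miR-211-5p, and miR-124-3p, the defining neuronal miRNA, was at 0 in 7 libraries. Endothelial and stromal markers (5 of 5 detected) summed to 38.7 to 99.5 CPM in MP and 24.2 to 53.5 CPM in TN, myeloid markers (2 of 2) to 1.59 to 12.2 and 5.62 to 10.4 CPM, and erythroid markers (3 of 3) to 0 to 8.92 and 1.69 to 5.20 CPM. The part of other cells in the members' levels was not tested.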

How the data were processed

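Small RNA of 8 libraries was sequenced; per the labels' protocols, RNA came from 10000 sorted cells and inserts of about 18 to 35 nt were kept. The values deposited by the authors are expected counts per mature miRNA, not all of them whole. The build named in the submitters' processing notes is mm10; aligner, counter and annotation: not given in the sources used here. Rows of one name were summed and rounded. Each member stood in 1 row, and its values were whole. Replicates differed beyond counting noise in every group (chi-square over its degrees of freedom, 260.1 to 1638).

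In edgeR 4.0.16, filterByExpr (minimum count 10, minimum total 15) left 382 of 877 detected miRNAs. Quasi-likelihood tests (TMM, robust) used all 8 libraries, with Benjamini-Hochberg adjustment over the 382. MP against TN over both genotypes came from an additive fit of subset and genotype (5 residual degrees of freedom), and the rest from a fit of 4 groups (4 residual degrees of freedom). The SE was computed as the absolute log2 fold change over the root of F. Ratios had a pseudocount of 0.5 and exact permutation tests, and profiles a prior count of 2. DESeq2 1.42.0 was an alternative, beside other scalings, no filter, a replicate block and libraries left out. Scripts were tested on simulated data. The miRNAs named are the members, their 3p arms, those sharing a seed, the 5 nearest profiles, and in each list the 3 of smallest p with any past the threshold. miR-29a-3p, other markers and the values of 1 library at a time were named beside results they touch. Members, lists, tests and alternatives were chosen with earlier results of these data known. Sequences are from RefSeq (GRCm38.p6) and gene positions from RefSeq and GENCODE M21.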

Additional observations from a re-analysis of the deposited data

Results flagged for a closer look

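The log2 ratio of miR-183-5p to miR-182-5p in TN had 1 library far from the others: the library labelled WT TN replicate 2 was at -0.61 and the other 3 between -1.21 and -1.17, a gap of 0.94 of the whole range against Dixon's 95% limit of 0.829 for 4 values. There were 12 such groups of 4 values, and chance puts about 1 in 20 past that limit. This library and the library labelled mCre TN replicate 2 are those whose miR-29a-3p levels ran opposite to replicate 1; the part of that in the ratio was not tested.

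For miR-183-5p the mCre libraries lay on opposite sides of the WT libraries in the 2 subsets. In MP the mCre libraries had 602 and 442 CPM against 243 and 400.5 CPM in WT. In TN the mCre libraries had 82.3 and 87.7 CPM against 144 and 167 CPM in WT. The interaction was 1.57 on the log2 scale and did not pass (edgeR adjusted p = 0.349; DESeq2 adjusted p = 0.203). The TN side rests on the genotype labels of the TN replicate 2 libraries, which went against miR-29a-3p. Without both of them the interaction was 1.47 (edgeR adjusted p = 0.706).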

How the results depend on the processing

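For MP against TN over both genotypes, in WT and in mCre, the log2 fold changes of all 3 members stayed above 0 under all 14 alternatives run (lowest 1.23, 0.56 and 1.26). The alternatives that only left out libraries could hardly turn these signs, since every MP library was above every TN library. For mCre against WT in MP, miR-182-5p reversed to -0.0602 with total counts, to -0.0369 without mCre MP replicate 2 and to -0.139 without WT MP replicate 1 (-0.139 to 0.437 over single libraries left out). In the interaction, miR-96-5p reversed to -0.0496 with total counts and to -0.0456 without both TN replicate 2 libraries. Total count scaling moved the median log2 fold change of all miRNAs in MP against TN over both genotypes from -0.04 to -0.23, and RLE to -0.15; with total counts it was -0.49 in mCre (TMM -0.18), -0.48 for mCre against WT in MP (TMM -0.23) and -0.46 for the interaction (TMM -0.22), and in WT -0.13 with RLE (TMM 0.05).

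The number of miRNAs past the threshold for MP against TN over both genotypes was 19 with no filter on low counts, 26 with DESeq2, 2 with the replicate block and 49 without both TN replicate 2 libraries, against 9; leaving out single libraries gave 0 to 41. In WT it was 6 with no filter, 10 with DESeq2 and 14 without both TN replicate 2 libraries, and 0 to 6 without single libraries. In mCre it was 24, 41 and 30, and 0 to 56. For mCre against WT it was 63 in MP without both TN replicate 2 libraries and 1 in TN with no filter. For the interaction it was 10 with no filter and 9 with DESeq2, and 0 to 68 without single libraries. The cause of these shifts was not tested.

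The ratio differences ranged over left-out libraries from -0.145 to 0.231 (miR-183-5p to miR-182-5p), -0.531 to -0.0604 (miR-96-5p to miR-182-5p) and -0.746 to 0.0713 (miR-96-5p to miR-183-5p). None passed under any alternative. With the replicate block, and without both TN replicate 2 libraries, none could pass, because the arrangements are too few for a p under 0.05.

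The replicate numbers of the titles are not said to mark a shared mouse or day. Deviations of same-numbered libraries from their group means correlated between -0.32 and 0.407 over the pairs of groups. With the number as a replicate block the adjusted p for MP against TN over both genotypes was 0.115 for miR-182-5p, 0.163 for miR-183-5p and 0.366 for miR-96-5p by edgeR. The exact permutation p within pairs, adjusted over the 3 ratios, was 0.875. Pairs this few allow no such p under 0.05, so it could not have passed. Depth limits miR-96-5p (6 to 58 counts per library) and the 3p arms most.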
